A study of Rattus norvegicus with 21 samples.

Results

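NBTII-FGFR1 cells were compared between 48 h and 24 h of FGF1 treatment. NBTII is an epithelial line from a rat bladder carcinoma, and NBTII-FGFR1 is that line transfected with FGF receptor 1, a receptor tyrosine kinase that binds FGF1. The step was read from 4 of the 21 arrays of the study, all 4 from NBTII-FGFR1: 48 h replicates 1 and 2 and 24 h replicates 1 and 2, with no untreated array in the difference. The 4 arrays of NBTII at 48 h and 24 h, 2 at each time, served for comparison. Every one of these cultures had FGF1 at 20 ng/ml with heparin at 50 µl/ml in its treatment protocol, and heparin helps FGF1 to bind its receptor. The arrays are Affymetrix rat expression arrays, on which a gene is read by 1 or more sets of short probes (probe sets), and all values are log2 levels, so that a difference of 1 is a doubling. The labels give neither the promoter of the receptor construct nor whether the transfected line is 1 clone, and no array of either line at 24 h or 48 h lacks FGF1. Hours of FGF1 and hours in culture therefore cannot be told apart in this step, and in bulk RNA fewer cells of a kind and less RNA per cell cannot be told apart either. The labels do not say whether replicates were separate cultures, so the spread between replicates may be technical. The p-values rest on that spread as estimated over the replicated groups of all 21 arrays, not over these arrays alone.

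FGF receptors signal through the RAS and ERK cascade, which induces transcription factors within minutes and feedback inhibitors such as the Sprouty proteins soon after. In epithelial carcinoma cells prolonged FGF signalling can drive scattering and an epithelial to mesenchymal transition, in which cells loosen their junctions, change their keratins and secrete proteases. Cells that leave the division cycle lower the genes of DNA replication and mitosis, which E2F factors and the DREAM complex control. Cells short of amino acids or with unfolded protein in the endoplasmic reticulum (ER) raise chaperone and amino acid genes through ATF6, XBP1 and ATF4.

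The 4 arrays were alike in level, with medians of 6.17 to 6.19 at 48 h and 6.14 to 6.15 at 24 h. The 2 replicates correlated at 0.997 at 48 h and 0.995 at 24 h, and a typical probe set differed between replicates by 0.100 at 48 h and 0.128 at 24 h (medians). Fgfr1 itself (1387498_a_at) read 7.44 and 7.20 in NBTII-FGFR1 at 48 h, against 4.56 and 6.14 at 24 h. In NBTII it read 3.82 and 3.87 at 48 h and 3.86 and 4.05 at 24 h, so all 4 NBTII-FGFR1 arrays stood above all 4 NBTII arrays. The NBTII-FGFR1 24 h replicate 1 stood nearest to NBTII, and the other Fgfr1 probe set (1372447_at), at 4.62 to 4.78, did not pass in either direction. The difference of 1.97 ± 0.57 (SE) passed (adjusted p = 0.041, limma), but the adjusted p was 0.42 without 24 h replicate 1 and the call was lost in 4 of 11 alternative settings. Igfbp5, an insulin-like growth factor binding protein, kept the lines apart too, at 4.53 and 4.36 in NBTII-FGFR1 at 48 h and 4.04 and 4.54 at 24 h, against 9.89 and 7.87 in NBTII at 48 h and 8.65 and 5.72 at 24 h.

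The replicates of a time were not at equal distance from the other time. Of the probe sets called between the times, 24 h replicate 2 lay nearer to 48 h than 24 h replicate 1 at 72.7% of the higher ones and 72.7% of the lower ones, and 48 h replicate 1 lay farther from 24 h than replicate 2 at 70.7% and 69.5%. A 5S ribosomal RNA control on the array read 9.72 and 9.13 at 48 h, against 6.64 and 7.48 at 24 h, and 8.03 and 8.32 in NBTII at 48 h, against 7.85 and 8.58 at 24 h. It moved with the step in NBTII-FGFR1, and its part in the result was not tested. The bacterial spikes overlapped between the times. The 3′ minus 5′ difference, which grows when RNA is degraded, was 0.33 and 0.42 for actin at 48 h, against 0.37 and 0.41 at 24 h, and -0.15 and -0.16 for Gapdh at 48 h, against -0.11 and -0.14 at 24 h. Outside the step, the array labelled NBTII-FGFR1 0 h replicate 1 read 3.57 for Fgfr1 (replicate 2, 5.92; NBTII at 0 h, 3.97), and NBTII-FGFR1 2 h replicate 1 correlated with the NBTII array of 0.5 h at 0.990 and with its own replicate at 0.988. These arrays entered only the estimate of the spread and the time course; without both, 1840 probe sets were called, against 1518 with them.

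The step was broad. Of 15866 probe sets tested, 1518 passed at an adjusted p under 0.05 (9.57%), 655 higher (4.13%) and 863 lower (5.44%) at 48 h. The differences called ran from 0.333 to 3.80 upward and from 0.326 to 2.95 downward, and 178 of the higher and 92 of the lower ones exceeded 1. With 1 probe set for each of 10411 named genes, 1151 passed (11.1%), of which 486 genes rose (4.67%) and 665 fell (6.39%), and the median gene moved by -0.0049. The count depends on single arrays: it was 356 probe sets without 48 h replicate 1, 706 without 48 h replicate 2, 407 without 24 h replicate 1 and 1127 without 24 h replicate 2.

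The genes that rose most included cytokines, a drug efflux pump, lipid handling genes and stress factors. Il23a, which encodes the p19 subunit of interleukin 23, read 11.69 and 11.14 at 48 h, against 6.81 and 8.43 at 24 h, a difference of 3.80 ± 0.52 or 13.9-fold (adjusted p = 0.00063, limma). Abcb1a, a P-glycoprotein that pumps drugs and lipids out of cells, read 7.56 and 7.64 at 48 h, against 4.45 and 4.80 at 24 h (2.97 ± 0.27, adjusted p = 4.2e-05). Its other probe set (1370465_at) rose as well, by 2.42. Sema3b, a secreted semaphorin, read 7.21 and 6.71 at 48 h, against 4.55 and 4.64 at 24 h (2.37 ± 0.21, adjusted p = 4.2e-05). In each of these 3 genes both 48 h arrays stood above both 24 h arrays with a clear gap. The magnesium transporter Slc41a2 rose by 2.13 ± 0.29, Apeg3 by 2.19 ± 0.28, the Schlafen family gene Slfn4 by 1.99 ± 0.23 and the small GTPase gene Rhob by 2.00 ± 0.32 (8.68 and 8.06 at 48 h, against 5.92 and 6.82 at 24 h). Fabp5, a fatty acid binding protein of epidermis, rose by 2.13 ± 0.64 and Pnrc1, a nuclear receptor coactivator, by 2.03 ± 0.58, with adjusted p of 0.0498 and 0.039; each lost the call in 5 alternative settings, of 12 for Fabp5 and 11 for Pnrc1. Other probe sets of Pnrc1 (1387939_at, 0.0050) and Slfn4 (1371163_at, -0.13) did not pass. Of the genes that passed and were named by the rule stated under data processing, 24 had a further probe set. Every further one passed in the same direction for 9, some did for 2 and none did for 13.

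Among genes that fell most, Amotl2, a junction-bound angiomotin that restrains YAP, read 6.63 and 6.97 at 48 h, against 9.10 and 8.38 at 24 h (-1.94 ± 0.30). Krt5, the basal keratin, read 8.97 and 9.21 at 48 h, against 11.37 and 10.41 at 24 h (-1.80 ± 0.25, adjusted p = 0.00067, limma). Cavin3, a coat protein of caveolae, read 6.97 and 6.94 at 48 h, against 8.61 and 8.34 at 24 h, with a gap larger than the spread of either pair (-1.51 ± 0.15, adjusted p = 7.8e-05). Trib2, a pseudokinase, fell by 1.82, Eva1a by 1.72, the matrix protein gene Tgfbi by 1.56, the connexin gene Gjb5 by 1.55 and the guidance protein gene Flrt2 by 1.42. Of the same 15 genes, Pclaf, a PCNA-bound replication factor (-1.48 ± 0.21), Cenpw, a centromere protein (-1.39 ± 0.17), Mcm5 (-1.38 ± 0.19), Cdca7 (-1.34 ± 0.37) and Pimreg (-1.33 ± 0.18) belong to or are tied to the division cycle. Atxn7l1 (-1.37 ± 0.21), whose other probe set (1375350_at, -0.026) did not pass, and Dennd2b (-1.31 ± 0.31) complete them. Cdca7 lost the call in 6 of 12 alternative settings. With an array left out, Trib2 and Tgfbi lost it in 2 fits and Flrt2 and Dennd2b in 3, at adjusted p of 0.11, 0.12, 0.20 and 0.22 without 24 h replicate 1.

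**Figure D1:**
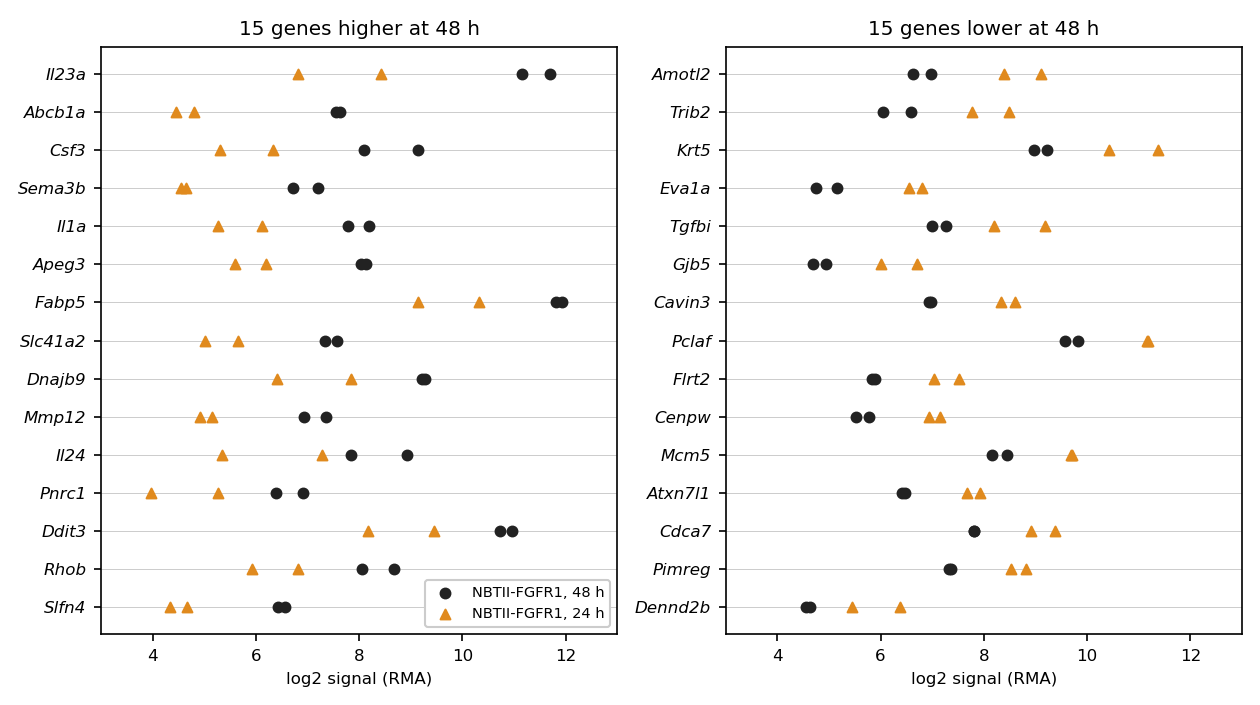
Log2 level (x axis) of the 15 genes that rose most and the 15 that fell most, by array, with NBTII-FGFR1 48 h as black circles and 24 h as orange triangles. Il23a sits at 11.69 and 11.14 at 48 h and at 6.81 and 8.43 at 24 h, and in every gene shown both 48 h arrays lie on the same side of both 24 h arrays, which the choice of genes required.

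Nearly all genes of DNA replication fell. Of 28 members measured among 38 listed, 26 fell (92.9%, against 6.39% of all genes) and none rose, with a median difference of -0.87 (all genes, -0.0049). In the MCM helicase, which opens the DNA, Mcm2 (-1.03), Mcm3 (-0.93), Mcm4 (-1.05), Mcm5 (-1.38), Mcm6 (-1.23) and Mcm7 (-0.89) fell. Mcm5 read 8.16 and 8.46 at 48 h, against 9.68 and 9.70 at 24 h (-1.38 ± 0.19, adjusted p = 0.00062, limma), and Mcm3 read 8.36 and 8.48 at 48 h, against 9.32 and 9.39 at 24 h (-0.93 ± 0.12, adjusted p = 0.00045). In both genes the 24 h replicates nearly coincide and the 48 h replicates lie well below. The origin and loading factors Gins1 (-1.13) and Orc6 (-0.97), the primase Prim1 (-1.15) and the polymerase subunits Pola1, Pola2, Pold1, Pold2 and Pole (-0.61 to -0.89) fell as well. So did the sliding clamp Pcna (-0.79), its loaders Rfc2 (-0.71) and Rfc3 (-0.86), and the flap nuclease Fen1 (-0.80). The nucleotide makers Tyms (-1.27), Tk1 (-1.03), Rrm1 (-0.94) and Dut (-0.81) fell too. The clamp loader Rfc4 (-0.51 ± 0.17, adjusted p = 0.081) and the histone mRNA binding gene Slbp (0.10, near background in all 4 arrays) did not pass. When 48 h replicate 1, 48 h replicate 2, 24 h replicate 1 and 24 h replicate 2 were left out in turn, 16, 23, 20 and 24 members fell.

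The promoter of Mcm3 is shown because E2F factors act at sites in the promoters of replication genes. Promoters here run from 250 bases before to 50 bases after the gene start, are taken from RefSeq (GRCr8) and read 5′ to 3′ along the gene; each gene shown has the smallest p among the called genes of its list whose promoter holds the motif, a choice made after values were seen. Capitals mark a match to the E2F motif TTCCCGC on the reverse strand, at chr9:30733697-30733996, minus strand.
Mcm3: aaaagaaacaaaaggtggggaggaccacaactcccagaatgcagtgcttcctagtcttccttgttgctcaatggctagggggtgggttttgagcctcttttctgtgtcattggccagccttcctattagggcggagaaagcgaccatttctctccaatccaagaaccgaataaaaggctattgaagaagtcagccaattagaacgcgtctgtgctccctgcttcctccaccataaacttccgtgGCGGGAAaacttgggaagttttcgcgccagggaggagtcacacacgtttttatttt
The E2F letters searched were TTCCCGC or TTGGCGC on both strands. They stood in 16 of 27 DNA replication promoters (59.3%), against 982 of 8610 promoters of measured genes (11.4%) and 6.67% of all 27457 promoters. A match is a description of the letters, not proof of a bound site.

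Most genes of mitosis fell as well. Of 28 members measured among 44 listed, 18 fell (64.3%) and none rose, with a median of -0.82, beside -0.02 in NBTII, although the difference between the lines passed for none of them. The mitotic cyclin Ccnb2 read 8.81 and 8.86 at 48 h, against 9.997 and 9.93 at 24 h (-1.13 ± 0.13, adjusted p = 0.00019, limma). Its kinase Cdk1 read 9.88 and 10.08 at 48 h, against 11.003 and 10.88 at 24 h (-0.96 ± 0.11). The Aurora kinase Aurkb read 6.996 and 7.20 at 48 h, against 8.20 and 8.34 at 24 h (-1.17 ± 0.13). All 28 members had both 48 h arrays below both 24 h arrays, which 31.0% of all genes did. The kinases Plk1 (-0.98) and Aurka (-0.92), the checkpoint genes Mad2l1 (-1.03) and Bub1b (-0.82), the kinesins Kif20a (-1.11) and Kif2c (-1.05) and the kinetochore gene Spc25 (-1.07) fell. Ube2c, the ubiquitin carrier of the anaphase promoting complex, fell by 0.94, and Mki67, the Ki-67 antigen, by 0.88. Top2a (-0.63) and the phosphatase Cdc25b (-0.10) did not pass. Without 48 h replicate 1, 48 h replicate 2, 24 h replicate 1 and 24 h replicate 2 in turn, 8, 14, 10 and 16 members fell.

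The Ccnb2 promoter is printed for the CHR element (TTTGAA), at which the DREAM and MuvB complexes bind mitotic genes; capitals mark its 2 matches, at chr8:79981609-79981908, minus strand.
Ccnb2: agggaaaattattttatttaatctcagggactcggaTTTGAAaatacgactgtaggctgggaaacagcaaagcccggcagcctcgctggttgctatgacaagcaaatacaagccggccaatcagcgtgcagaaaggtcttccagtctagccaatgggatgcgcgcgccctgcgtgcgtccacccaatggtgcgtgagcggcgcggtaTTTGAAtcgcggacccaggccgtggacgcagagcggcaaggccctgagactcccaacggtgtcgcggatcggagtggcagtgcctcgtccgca
TTTGAA, searched on both strands, stood in 16 of 25 mitosis promoters (64.0%), against 11.7% of the promoters of measured genes and 18.1% of all promoters. The CCAAT box, searched on both strands and not capitalised here, stood in 21 of the 25 (84.0%), against 37.6% and 37.7%.

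Other genes linked to division gave calls in both directions. On a list of 7 linker histone, histone variant and high mobility group genes, 4 fell (57.1%, against 6.39% of all genes). They were H2ax, a histone variant of DNA damage signalling (-1.06 ± 0.13), Hmgn2 (-1.03 ± 0.12), Hmgb1 (-0.73) and Hmgb3 (-0.78). The high mobility group genes Hmgn2, Hmgb1 and Hmgb3 encode chromatin proteins that are not histones. Among 22 genes that brake the cell cycle or that p53 induces, 3 passed in each direction (13.6% each). Of all genes 4.67% were higher and 6.39% lower. The growth arrest gene Gadd45a (1.47 ± 0.30), the antiproliferative gene Btg1 (0.82) and the retinoblastoma gene Rb1 (0.59) rose. The CDK inhibitor Cdkn2c (-0.61), Gadd45b (-0.59) and Plk2 (-1.03) fell. The CDK inhibitor Cdkn1a did not pass (0.78, adjusted p = 0.15). Without 48 h replicate 1 or 24 h replicate 1 none of the 22 passed; without 48 h replicate 2, 0 rose and 2 fell, and without 24 h replicate 2, 6 rose and 2 fell.

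Many ribosome biogenesis genes fell. Of 45 members measured among 58 listed, 29 fell (64.4%) and none rose, with a median of -0.53 (NBTII, -0.27). Fibrillarin (Fbl), which methylates ribosomal RNA in the nucleolus, read 9.93 and 9.90 at 48 h, against 10.88 and 10.65 at 24 h (-0.85 ± 0.13, adjusted p = 0.0012, limma). The RNA polymerase I subunits Polr1b (-0.76), Polr1c (-0.46) and Polr1e (-0.60) fell, as did the assembly factors Rrs1 (-0.87), Imp3 (-0.82), Rrp9 (-0.76) and Noc2l (-0.74). The MYC-responsive metabolic genes Srm, spermidine synthase (-0.77), and Cad, of pyrimidine synthesis (-0.70), fell with them. Nucleolin (Ncl, -0.47, adjusted p = 0.12) and Odc1, the first enzyme of polyamine synthesis (0.41), did not pass. The count rests on single arrays: without 48 h replicate 1, 48 h replicate 2, 24 h replicate 1 and 24 h replicate 2 in turn, 6, 11, 5 and 21 members fell.

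Many ER chaperone and secretory genes rose. Of 33 members measured among 34 listed, 17 rose (51.5%, against 4.67% of all genes) and none fell, with a median of 0.51 (NBTII, 0.34). Hspa5, the main ER chaperone BiP, read 12.71 and 12.64 at 48 h, against 11.11 and 11.51 at 24 h (1.37 ± 0.29, adjusted p = 0.0087, limma). Hsp90b1, the ER form of HSP90, read 12.82 and 12.77 at 48 h, against 11.64 and 11.54 at 24 h (1.21 ± 0.25, adjusted p = 0.0065). The groups did not overlap in either gene, and the 48 h replicates lay closer together than those of 24 h. Of the disulfide isomerases, Pdia6 rose by 0.86 and Pdia4 by 0.86. Among cochaperones Dnajb9 rose by 2.12 ± 0.41 (9.28 and 9.21 at 48 h, against 6.41 and 7.83 at 24 h), Sdf2l1 by 1.34, Hyou1 by 0.82 and Dnajc3 by 0.54. Another Hyou1 probe set (1370665_at, 0.54) did not pass. Sel1l and Herpud1, of the pathway that returns misfolded protein for degradation, rose by 1.43 ± 0.18 and 1.36 ± 0.40, and the transcription factor Xbp1 by 0.74. The lectin chaperones Calr and Canx rose by 0.57 and 0.50. In fits without 48 h replicate 1, 48 h replicate 2, 24 h replicate 1 and 24 h replicate 2 in turn, 3, 6, 6 and 10 members rose.

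The Hsp90b1 promoter is shown for its ER stress elements (CCAAT, 9 bases, CCACG), the site that ATF6 reads with NF-Y. Capitals mark the CCAAT and CCACG parts of the 2 elements, one on each strand, at chr7:23012244-23012543, minus strand.
Hsp90b1: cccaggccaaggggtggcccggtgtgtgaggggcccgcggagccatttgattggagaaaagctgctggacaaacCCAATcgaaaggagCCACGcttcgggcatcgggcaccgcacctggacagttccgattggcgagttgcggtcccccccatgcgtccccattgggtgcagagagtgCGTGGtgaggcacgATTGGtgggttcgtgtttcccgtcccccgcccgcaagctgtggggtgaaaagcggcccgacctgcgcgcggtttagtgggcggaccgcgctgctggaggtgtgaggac
The element, searched on both strands, stood in 7 of 26 ER promoters (26.9%), against 17 of 8610 promoters of measured genes (0.197%) and 0.0765% of all promoters. Each element contains a CCAAT box, which stood in 22 of the 26 (84.6%).

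Genes of the amino acid response, many of them targets of the transcription factor ATF4, rose in part. Of 35 members measured among 51 listed, 13 rose (37.1%) and none fell, with a median of 0.52 in NBTII-FGFR1 and 0.50 in NBTII. Ddit3, the stress factor CHOP, read 10.95 and 10.72 at 48 h, against 8.17 and 9.44 at 24 h (2.03 ± 0.37, adjusted p = 0.0036, limma). The 24 h replicates lie far apart, and the call was lost in 2 of the settings that leave out an array (adjusted p up to 0.067). The transcription factor Cebpb rose by 1.40, the pseudokinase Trib3 by 1.37 and Ppp1r15a, which reverses the block on translation, by 1.57. Asparagine synthetase (Asns) rose by 0.86, the amino acid transporter chain Slc3a2 by 0.82, and the tRNA synthetases Wars1, Sars1, Aars1 and Lars1 by 0.56 to 0.80. Atf4 itself (0.52, adjusted p = 0.15), Chac1 (1.24, adjusted p = 0.12) and the serine synthesis gene Psat1 (0.04) did not pass. When 48 h replicate 1, 48 h replicate 2, 24 h replicate 1 and 24 h replicate 2 were left out in turn, 0, 6, 1 and 15 members rose. Of 18 cytosolic heat shock genes, the small heat shock protein Hspb8 (1.12) rose (5.56%, against 4.67% of all genes). The HSP90 cochaperones Ahsa1 (-0.66) and Stip1 (-0.44) fell (11.1%, against 6.39%), and the median of the 18 was -0.28. No heat shock gene fell without 48 h replicate 1 or 24 h replicate 1, and 1 fell without 48 h replicate 2 or 24 h replicate 2.

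Many lysosome and autophagy genes rose. Of 36 members measured among 43 listed, 18 rose (50.0%) and none fell, with a median of 0.44 (NBTII, 0.32). Grn, which encodes the lysosomal protein progranulin, read 11.28 and 11.11 at 48 h, against 9.60 and 9.56 at 24 h (1.62 ± 0.15, adjusted p = 4.2e-05, limma). The protease cathepsin D (Ctsd) read 11.77 and 11.61 at 48 h, against 10.13 and 10.44 at 24 h (1.41 ± 0.18, adjusted p = 0.00046). The groups did not overlap in either gene. Among the other hydrolases and lumenal proteins, Ctsl (1.25), Npc2 (0.96), Tpp1 (0.81), Gaa (0.79), Ctsc (0.68), Neu1 (0.63), Ctsb (0.53) and Hexa (0.46) rose. In the lysosomal membrane, Lamp2 (1.06; 0.17 and not called at its other probe set, 1383080_at), Scarb2 (0.66), Cd63 (0.54) and the channel Mcoln1 (0.45) rose, and so did the proton pump subunits Atp6v0d1 (0.71) and Atp6v1a (0.37). Sqstm1, the autophagy receptor p62, rose by 1.39, and Map1lc3a by 0.62. The membrane protein gene Lamp1 (0.17) and the autophagy genes Atg5 (-0.033) and Atg7 (-0.17) did not pass. Without 48 h replicate 1, 48 h replicate 2, 24 h replicate 1 and 24 h replicate 2 in turn, 6, 11, 8 and 9 members rose.

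The Ctsd promoter carries 2 copies of CACGTG, the core of the CLEAR element that TFEB and TFE3 bind at lysosomal genes, marked in capitals, at chr1:206968772-206969071, minus strand.
Ctsd: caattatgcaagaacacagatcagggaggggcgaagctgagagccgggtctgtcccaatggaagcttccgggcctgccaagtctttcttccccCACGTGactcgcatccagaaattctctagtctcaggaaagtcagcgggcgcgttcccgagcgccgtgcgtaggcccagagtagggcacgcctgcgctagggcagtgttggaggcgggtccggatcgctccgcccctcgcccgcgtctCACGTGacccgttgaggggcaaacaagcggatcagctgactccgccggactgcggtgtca
CACGTG, which reads the same on both strands, stood in 8 of 30 lysosome promoters (26.7%), against 8.94% of the promoters of measured genes and 6.65% of all promoters.

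**Figure D2:**
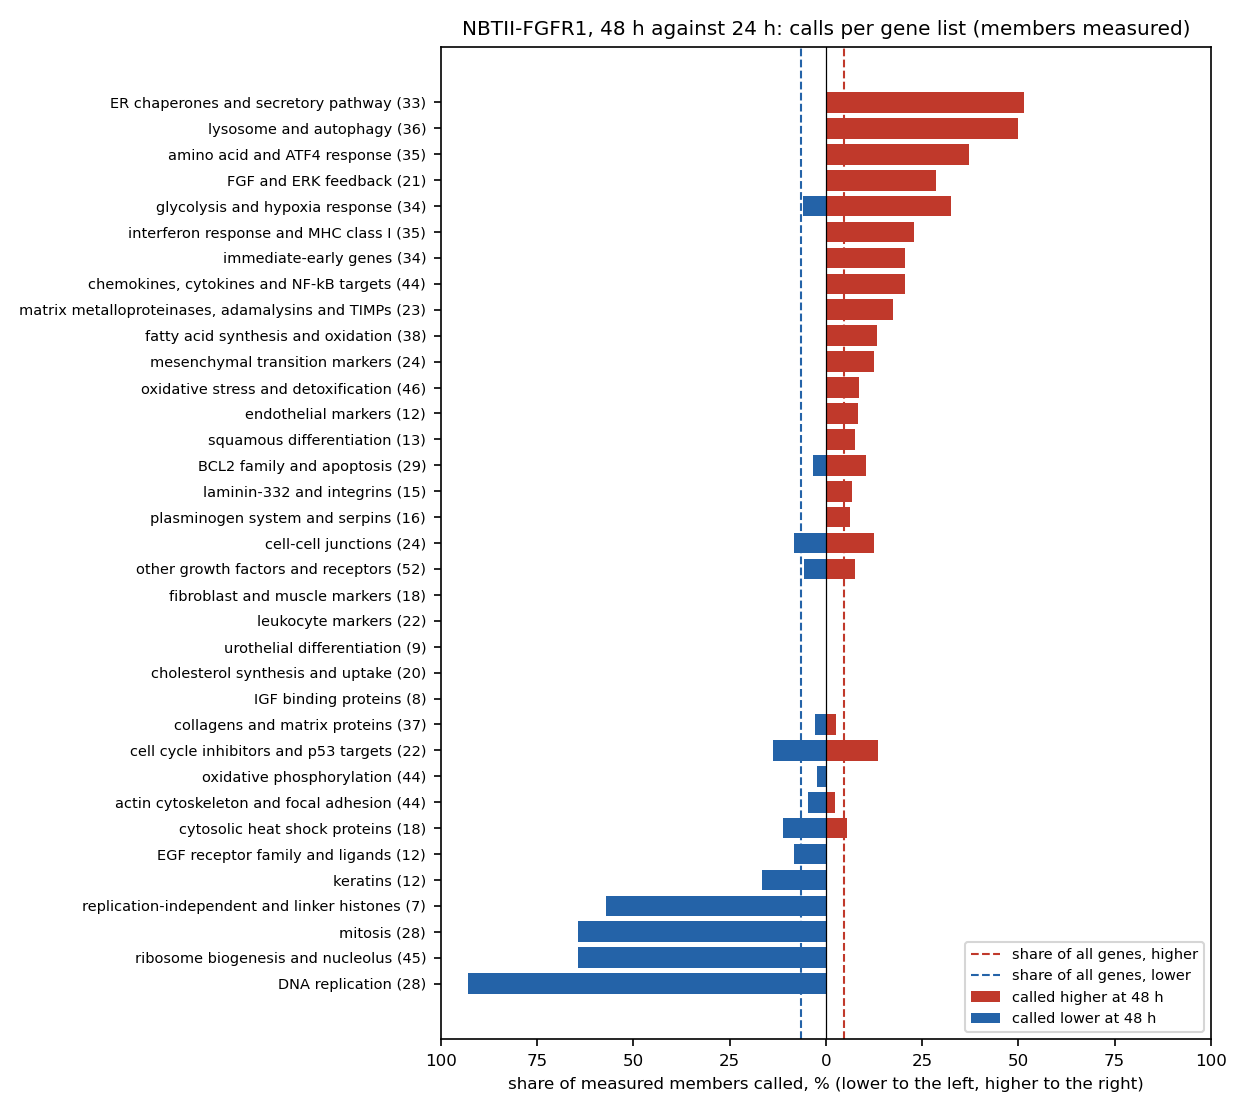
Percent of the measured members of each gene list that rose (red, to the right) or fell (blue, to the left) between 24 h and 48 h in NBTII-FGFR1; dashed lines mark the shares of all 10411 genes, 4.67% higher and 6.39% lower. DNA replication (92.9% lower), ribosome biogenesis (64.4%) and mitosis (64.3%) reach farthest left, and ER chaperones (51.5% higher), lysosome (50.0%) and ATF4 genes (37.1%) farthest right.

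Secreted signals of inflammation rose in part. Of 44 measured chemokines, cytokines and NF-kB targets, 9 rose (20.5%) and none fell, with a median of 0.16. Beside Il23a, the neutrophil growth factor gene Csf3 read 9.13 and 8.08 at 48 h, against 5.30 and 6.32 at 24 h (2.80 ± 0.40, adjusted p = 0.00076, limma). Il1a, an epithelial alarm cytokine, read 8.19 and 7.78 at 48 h, against 5.27 and 6.12 at 24 h (2.29 ± 0.35, adjusted p = 0.0011), and its other probe set (1371170_a_at) rose by 2.21. In both genes the 48 h arrays clear the 24 h arrays by a wide margin, though 24 h replicate 2 is the higher of its pair. The chemokine Cxcl16 read 10.16 and 10.14 at 48 h, against 8.38 and 8.74 at 24 h (1.59 ± 0.16, adjusted p = 7.8e-05). Ptgs2, the inducible cyclooxygenase, read 10.64 and 10.45 at 48 h, against 8.63 and 9.35 at 24 h (1.56 ± 0.25). Lcn2, an iron-scavenging lipocalin, rose by 1.60, the NF-kB inhibitor Nfkbia by 1.26 and the monocyte chemokine Ccl2 by 1.53. Il24 read 8.93 and 7.84 at 48 h, against 5.34 and 7.27 at 24 h (2.08 ± 0.49, adjusted p = 0.016), and lost the call in 3 of 11 alternative settings. The cytokine genes Il6 (0.14), Il1b (-0.0087), Tnf (0.13) and Ccl20 (0.035) did not pass, and Il6 lay below the lower quartile of each array. In fits without 48 h replicate 1, 48 h replicate 2, 24 h replicate 1 and 24 h replicate 2 in turn, 6, 7, 6 and 9 members rose.

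Of 35 interferon response and MHC class I genes, 8 rose (22.9%) and none fell. The peptide presentation genes B2m (12.09 and 11.99 at 48 h, against 11.07 and 11.25 at 24 h, 0.88 ± 0.16), Tap1 (0.53), Tap2 (0.65) and the immunoproteasome subunit Psmb9 (0.63) rose. The interferon-induced genes Ifi27l2b (1.80 ± 0.25), Rsad2 (1.16), Ifi27 (0.91) and Gbp2 (0.70) rose as well. Gbp2 read 4.44 and 4.27 at 48 h, against 3.58 and 3.73 at 24 h, near or below the lower quartile of the arrays, which lay at 4.37 to 4.41. Levels under that quartile were not shown to exceed background, and for Gbp2 neither time was clearly above it, so its difference gives no reliable size. When 48 h replicate 1, 48 h replicate 2, 24 h replicate 1 and 24 h replicate 2 were left out in turn, 4, 6, 4 and 6 members rose.

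Some feedback and early genes of growth factor signalling rose. The list of FGF and ERK feedback also holds FGF receptors and coreceptors. Of its 21 measured genes, 6 rose (28.6%, against 4.67% of all genes) and none fell. Of these, Spry2, a Sprouty inhibitor of receptor signalling, read 7.78 and 7.72 at 48 h, against 6.83 and 7.21 at 24 h (0.72 ± 0.13, adjusted p = 0.0030, limma). The MAP kinase phosphatase Dusp1 read 8.36 and 7.86 at 48 h, against 5.44 and 6.82 at 24 h (1.98 ± 0.38), while Dusp6, the ERK phosphatase, did not pass (0.24). Errfi1, an inhibitor of the EGF receptor, rose by 1.67, Ier3 by 1.22 and the FGF coreceptor syndecan 1 (Sdc1) by 0.48. The sixth was Fgfr1, the receptor transfected into this line, whose call was lost in 4 of 11 alternative settings. Fgfr2, another FGF receptor, did not pass (-0.55, adjusted p = 0.31). Of 34 immediate-early genes, 7 rose (20.6%) and none fell. They were Jund (1.16 ± 0.14), Jun (0.84), Klf4 (0.55), Klf6 (0.88), Klf9 (1.54), Zfp36l1 (1.03) and Ier5 (0.78). Other probe sets of Jund (1375768_at, 0.059), Klf6 (1388986_at, 0.46) and Klf9 (1390076_at, -0.11) did not pass. A further Klf9 probe set (1387882_at) rose by 0.75. Without 48 h replicate 1, 48 h replicate 2, 24 h replicate 1 and 24 h replicate 2 in turn, 1, 4, 0 and 7 feedback genes and 1, 5, 2 and 7 early genes rose. Fosl1, a FOS family gene often high in motile cells, did not pass (-0.07).

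Some protease and inhibitor genes rose. Of 23 metalloproteinases and their inhibitors, 4 rose (17.4%, against 4.67% of all genes) and none fell. Mmp12, an elastase, read 7.36 and 6.93 at 48 h, against 4.92 and 5.14 at 24 h (2.11 ± 0.31, adjusted p = 0.00084, limma). The membrane enzyme Mmp14 rose by 0.89 and the inhibitor Timp2 by 0.59, though another Timp2 probe set (1367823_at, 0.17) did not pass. Mmp9, a gelatinase, read 5.59 and 4.60 at 48 h, against 4.07 and 4.20 at 24 h (0.96 ± 0.29, adjusted p = 0.0496, limma). Both 24 h values lay below the lower quartiles of those arrays (4.37 and 4.38), so the difference gives no reliable size. The Mmp9 call was lost in 7 of 11 alternative settings, and another Mmp9 probe set (1369166_at, 0.47) did not pass. Mmp10 read 12.48 and 12.12 at 48 h, against 9.08 and 11.44 at 24 h, and did not pass (2.04 ± 0.65, adjusted p = 0.064). Mmp13, a collagenase, did not pass either (12.37 and 12.22 at 48 h, against 10.67 and 11.34 at 24 h, adjusted p = 0.15), nor did Mmp3 (0.25). The urokinase gene Plau read 7.80 and 7.48 at 48 h, against 8.46 and 8.45 at 24 h, and did not pass (-0.82, adjusted p = 0.057), though its other probe set (1398287_at) fell by 0.95. Of 16 genes of the plasminogen system, the protease inhibitor Serpine2 (1.11 ± 0.21) rose (6.25%, near the 4.67% of all genes). In fits without 48 h replicate 1, 48 h replicate 2, 24 h replicate 1 and 24 h replicate 2 in turn, 1, 3, 1 and 3 metalloproteinase or inhibitor genes rose.

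Markers of the epithelial state moved unequally. Of 12 keratins measured, the basal pair Krt5 and Krt14 fell (16.7%, against 6.39% of all genes) and no other passed. Krt14 read 11.76 and 11.90 at 48 h, against 13.21 and 12.87 at 24 h (-1.21 ± 0.13, adjusted p = 0.00013, limma), and both keratins kept the call without each array in turn. The simple keratins Krt8 (8.48 and 8.06 at 48 h, 8.29 and 8.05 at 24 h) and Krt18 (5.57 and 5.21 at 48 h, 4.95 and 4.85 at 24 h) did not pass. E-cadherin (Cdh1) read 8.09 and 7.80 at 48 h, against 8.23 and 7.75 at 24 h, and did not pass. Desmoplakin (Dsp, 0.34), plakoglobin (Jup, -0.40, adjusted p = 0.075) and Epcam (10.65 and 10.32 at 48 h, 10.59 and 10.28 at 24 h) did not pass. Of 24 junction genes 3 rose (12.5%, against 4.67% of all genes): the desmosomal cadherin Dsc2 (1.08 ± 0.20), alpha-catenin (Ctnna1, 0.61) and occludin (Ocln, 1.13). The connexin Gjb5 and the tight junction scaffold Tjp1 (-0.52) fell (8.33%, near the 6.39% of all genes). Of 24 mesenchymal markers 3 rose (12.5%, against 4.67% of all genes) and none fell. The 3 were the hyaluronan receptor Cd44 (0.89 ± 0.16), galectin 1 (Lgals1, 0.72) and the transcription factor Zeb1 (0.73). Vimentin (Vim) read 8.47 and 8.81 at 48 h, against 9.82 and 9.81 at 24 h. The groups did not overlap, but the difference did not pass (-1.17 ± 0.72, adjusted p = 0.40, limma). Its error rests on the spread over all 21 arrays. Fibronectin (Fn1, 0.12) and Snai1 (0.00) did not pass. With only the arrays compared in the fit, or only the 8 arrays of 24 h and 48 h, 3 mesenchymal markers rose and 1 fell. Without 48 h replicate 1 or 24 h replicate 1 none of the mesenchymal markers passed, without 48 h replicate 2, 1 rose and without 24 h replicate 2, 3 rose. Junction genes gave 1 higher and 1 lower without 48 h replicate 1, 2 and 1 without 48 h replicate 2, 0 and 1 without 24 h replicate 1, and 2 and 2 without 24 h replicate 2.

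Matrix, adhesion and cytoskeleton genes gave few calls. The shares given next were near or below those of all genes (4.67% higher, 6.39% lower), so they are no result about a list. Of 37 collagens and matrix proteins, osteopontin (Spp1, 1.36 ± 0.34) rose (2.7%) and Tgfbi fell (2.7%). On a list of 15 laminin-332, integrin and other adhesion genes, only Cd44 passed (higher, 6.67%), so no laminin or integrin gene did. Of 44 actin and focal adhesion genes Rhob rose (2.27%). Rnd3 (-1.31 ± 0.24), which opposes RHOA, and Fhl2 (-0.94) fell (4.55%). Another Fhl2 probe set (1371951_at, -0.80) did not pass. Of 52 other growth factor genes 4 rose (7.69%): Vegfa (1.24 ± 0.19), Vegfb (0.81), the stress cytokine Gdf15 (1.65) and the ephrin receptor Epha2 (0.56). The 3 that fell (5.77%) were Wnt4 (-1.13 ± 0.20), the Notch target Hes1 (-0.36) and the activin antagonist Fst (-0.99). Of 12 genes of the EGF receptor family and its ligands Tgfa (-0.51) fell (8.33%). None of 8 IGF binding protein genes and none of 9 urothelial genes passed, and of 13 squamous genes the protease Asprv1 (1.42) rose (7.69%). Across these lists, Asprv1 and Gdf15 each lost the call in 4 of 12 alternative settings and Spp1 in 3 of 11. Rhob, Vegfa and Wnt4 kept it in all 12. Without an array in turn, each of these lists had 0 to 4 members passing in a direction.

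In metabolism most calls were among hypoxia-linked genes. Of 34 glycolysis and hypoxia genes, 11 rose (32.4%, against 4.67% of all genes) and 2 fell (5.88%, against 6.39%). Enolase 2 (Eno2) read 7.38 and 7.39 at 48 h, against 6.11 and 6.17 at 24 h (1.24 ± 0.11, adjusted p = 4.6e-05, limma). The heme oxygenase Hmox1 rose by 1.504, the glucose transporter Slc2a1 by 0.84, hexokinase 2 (Hk2) by 0.91, the mitophagy gene Bnip3 by 0.89 and the vasoactive peptide gene Adm by 1.21, along with Vegfa, Mxi1, Pfkfb4, Ndrg1 and Bnip3l. Phosphofructokinase (Pfkl, -0.56) and the oxygen sensor Egln1 (-0.45) fell. When 48 h replicate 1, 48 h replicate 2, 24 h replicate 1 and 24 h replicate 2 were left out in turn, 3, 10, 5 and 11 rose. Of 38 fatty acid genes 5 rose and none fell: perilipin 2 (Plin2, 1.79), the coat of lipid droplets, Fabp5, Hadhb (0.65), Dgat1 (0.63) and Fads1 (0.44); 2, 3, 2 and 4 rose with the same arrays left out in turn. None of 20 cholesterol genes passed with all arrays, but 5 fell without 24 h replicate 1 and 5 rose without 24 h replicate 2. The 5 fatty acid genes that rose made 13.2% of their list, against 4.67% of all genes. Of 44 oxidative phosphorylation genes Sdhd (-0.58) fell (2.27%, against 6.39% of all genes). Another Sdhd probe set (1371296_at, -0.32) did not pass. Of 46 oxidative stress genes 4 rose (8.7%, against 4.67% of all genes): Hmox1, Gpx4 (0.55), Gstt1 (0.48) and Gstt2 (0.83). Without 48 h replicate 1, 48 h replicate 2, 24 h replicate 1 and 24 h replicate 2 in turn, 0, 3, 1 and 2 of these 46 rose, and Gstt1 lost the call in 6 of 12 alternative settings. Of 29 BCL2 family and apoptosis genes, 3 rose (10.3%, against 4.67% of all genes) and 1 fell (3.45%, against 6.39%). The caspases Casp4 (8.52 and 8.26 at 48 h, 6.28 and 6.82 at 24 h, 1.84 ± 0.26) and Casp8 (0.83) rose. So did the survival gene Bcl2l1 (0.57), while Birc5 (-0.86), also a mitotic gene, fell. Other Bcl2l1 probe sets (1369180_at, 0.062, and 1370485_a_at, 0.33) did not pass. Bcl2l1 lost the call in 4 of 11 alternative settings and Casp8 in 3 of 12. With the same arrays left out in turn 1, 1, 1 and 2 of the 29 rose, and Birc5 lost the call without 48 h replicate 1.

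Markers of other cell types gave 1 call. None of 22 leukocyte markers and none of 18 fibroblast and muscle markers passed. Of 12 endothelial markers Tie1 rose (8.33%, against 4.67% of all genes), at 4.59 and 4.60 at 48 h, against 3.91 and 4.13 at 24 h. Tie1 lost the call in all 4 fits that left out an array (adjusted p up to 0.30). Below the lower quartile of all 4 arrays lay 8 leukocyte, 6 endothelial and 11 fibroblast and muscle markers. Epithelial Epcam, Cdh1, Dsp, Jup, Cldn4, Krt5, Krt8, Krt14 and Krt18 were above it in all 4, and Krt19, at 3.24 to 3.61, was below it in all 4.

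The step was then placed in the time course. At 0.5, 2, 6, 24 and 48 h the median level of the DNA replication genes in the NBTII-FGFR1 arrays was 9.14, then 9.21 and 9.15, then 8.29 and 8.36, then 9.33 and 9.34, and last 8.19 and 8.43. These genes were thus low at 6 h and at 48 h and high at 24 h. The mitosis genes read 9.61, 9.50 and 9.43, 8.999 and 9.25, 9.72 and 9.71, and 8.85 and 8.87 in the same order. The lysosome genes read 8.86, 8.67 and 8.79, 8.70 and 8.72, 8.58 and 8.62, and 9.14 and 9.14, so that the 48 h arrays were the highest of the 9. The ER genes behaved alike, at 9.82, 9.84 and 9.63, 9.62 and 9.55, 9.67 and 9.76, and 10.17 and 10.13. For ATF4 genes the levels were 10.05, 10.18 and 9.68, 9.16 and 9.12, 9.38 and 9.72, and 10.30 and 10.25, so that 48 h stood little above 0.5 h and well above 6 h and 24 h. Both 48 h arrays lay above all 5 arrays of 0.5 to 6 h at 440 of the 655 higher probe sets (67.2%) and below them at 356 of the 863 lower ones (41.3%). Without 2 h replicate 1 the shares were 71.6% and 45.0%, and of the probe sets not called, 9.19% lay above and 9.13% below. Krt5 read 12.50 to 12.93 over 0.5 to 6 h, above both later times, while Mmp12 read 6.995 and 8.28 at 6 h, a level like that of 48 h.

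**Figure D3:**
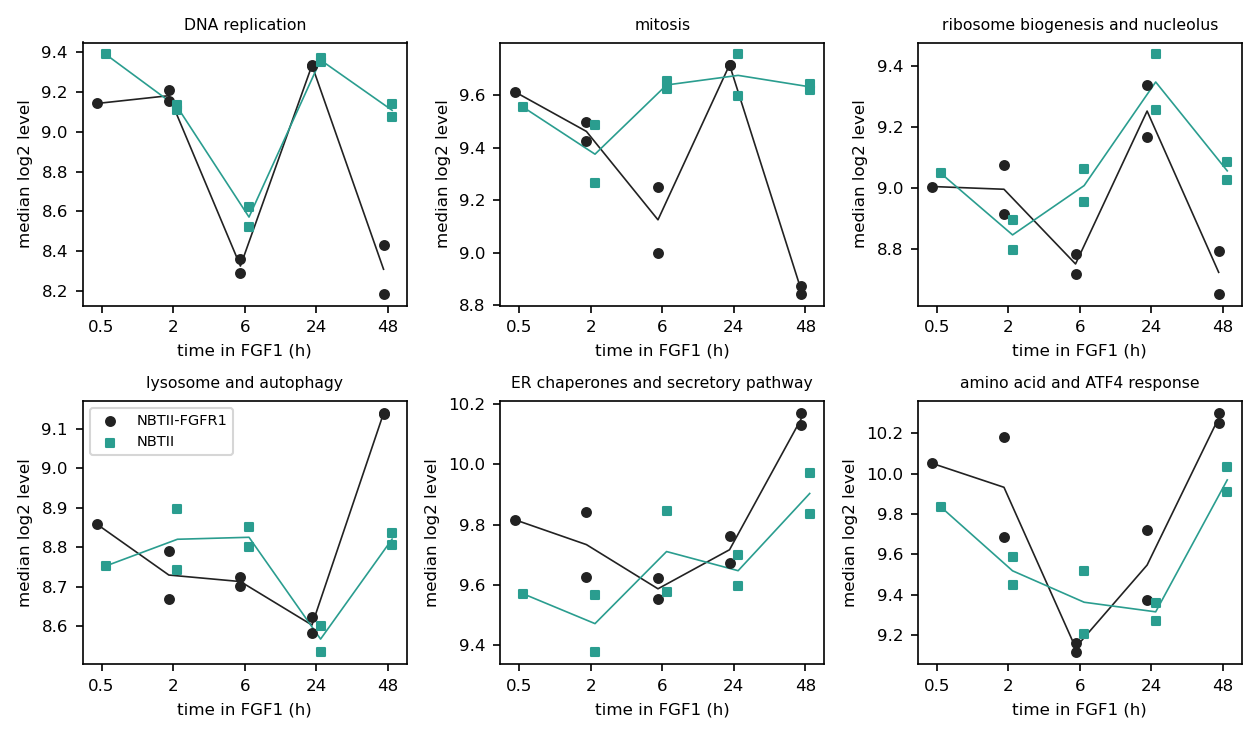
Median log2 level of 6 gene lists (y axis) in each array at 0.5, 2, 6, 24 and 48 h of FGF1 (x axis), with NBTII-FGFR1 as black circles and NBTII as green squares; lines join the means of the arrays at each time. DNA replication genes lie at 8.19 and 8.43 in NBTII-FGFR1 at 48 h and at 9.33 and 9.34 at 24 h, while in NBTII they lie at 9.14 and 9.08 at 48 h and 9.37 and 9.35 at 24 h.

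In NBTII the step from 24 h to 48 h gave few calls. At the same threshold 10 probe sets passed (0.063%), 8 higher (0.0504%) and 2 lower (0.0126%), and 1663 had an unadjusted p under 0.05, against 3430 in NBTII-FGFR1. Higher were Sema3b, the membrane glycoprotein gene Gpnmb, Itm2b, Klf4, Pcmtd2, the glycine transporter gene Slc6a9, Tnfrsf21 and 1389246_at, which has no symbol. Lower were Ubl4a and 1376513_a_at. All 10 were also called in the same direction in NBTII-FGFR1. Across all probe sets the 2 steps, which share no array, correlated at 0.553, a description without a test. Of the 655 probe sets that were higher in NBTII-FGFR1, 595 (90.8%) had a positive difference in NBTII, with a median of 0.745 in NBTII-FGFR1 and 0.303 in NBTII. Of the 863 that were lower, 792 (91.8%) were negative in NBTII, with medians of -0.645 in NBTII-FGFR1 and -0.241 in NBTII. Over all probe sets 47.6% were positive in NBTII. The members were chosen by their difference in NBTII-FGFR1, so its larger median is no test.

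**Figure D4:**
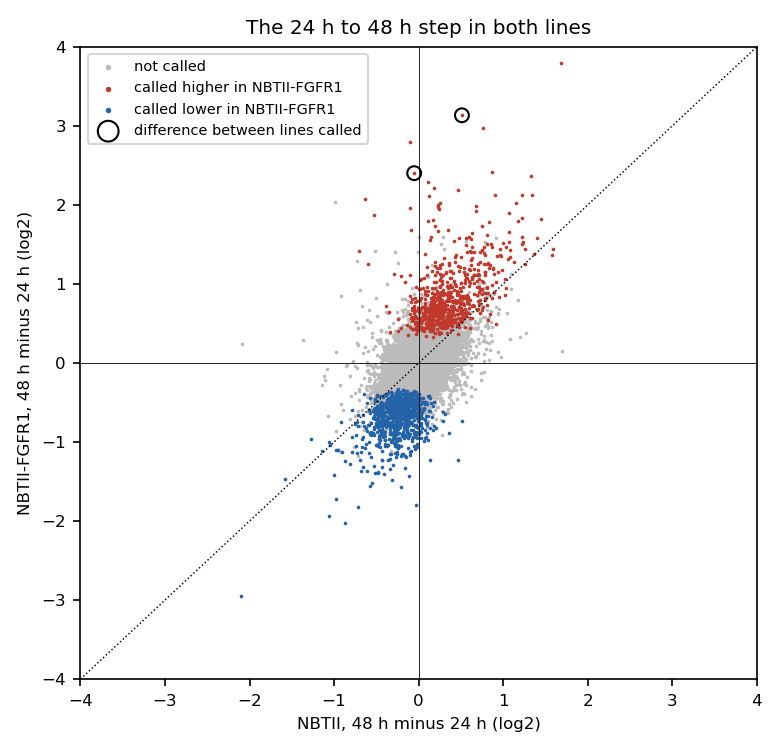
Log2 difference of 48 h minus 24 h for every probe set, in NBTII on the x axis and in NBTII-FGFR1 on the y axis. The cloud leans along the diagonal (r = 0.553), and the 2 circled probe sets are those whose steps differed between the lines at an adjusted p under 0.05.

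The test of the difference between the lines called 2 of 15866 probe sets (0.0126%), with 1108 at an unadjusted p under 0.05. A probe set of Plin2 (1382680_at) read 9.19 and 8.71 in NBTII-FGFR1 at 48 h, against 5.38 and 6.25 at 24 h, and 5.88 and 5.81 in NBTII at 48 h, against 5.22 and 5.44 at 24 h. Its step was larger in NBTII-FGFR1 by 2.62 (adjusted p = 0.0065, limma). The other, 1386383_at, has no symbol and read 6.25 and 6.70 in NBTII-FGFR1 at 48 h, against 3.75 and 4.40 at 24 h, and 3.64 and 3.61 in NBTII at 48 h, against 3.77 and 3.57 at 24 h (difference of steps 2.45, adjusted p = 0.0036). With 1 probe set per gene none of 10411 genes passed. The smallest p belonged to Abcb1a (2.21 ± 0.37), Cdca3 (-0.93 ± 0.15), Spry2 (1.11 ± 0.18) and Ccnb2 (-1.03 ± 0.18), each with an adjusted p of 0.070, and Kif18b, a mitotic kinesin (-1.03 ± 0.18, adjusted p = 0.091). Cdca3, a trigger of mitotic entry, read 7.95 and 8.08 in NBTII-FGFR1 at 48 h, against 9.03 and 8.89 at 24 h, and 8.76 and 8.80 in NBTII at 48 h, against 8.81 and 8.78 at 24 h.

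Several large steps in NBTII-FGFR1 had small ones in NBTII, with no difference between the lines past the threshold for the probe sets given next. Csf3 read 4.96 to 5.16 in all 4 NBTII arrays. Krt5 read 11.25 and 10.82 in NBTII at 48 h, against 11.34 and 10.80 at 24 h, and its difference of steps of -1.77 did not pass (adjusted p = 0.14). The Plin2 probe set of highest level (1390383_at) read 12.49 and 12.09 in NBTII-FGFR1 at 48 h, against 10.15 and 10.85 at 24 h (1.79 ± 0.27), and 9.66 and 9.88 in NBTII at 48 h, against 9.74 and 9.58 at 24 h. By contrast, Il23a and Sema3b also moved in NBTII, by 1.68 and 1.33, and Sema3b was called there.

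**Figure D5:**
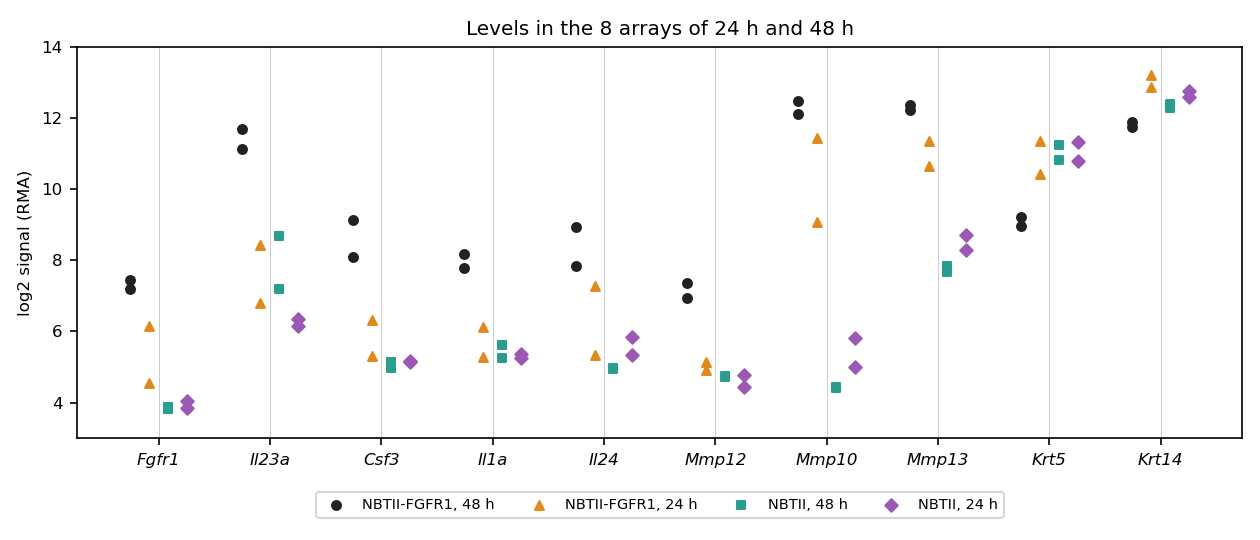
Log2 level (y axis) of Fgfr1, Il23a, Csf3, Il1a, Il24, Mmp12, Mmp10, Mmp13, Krt5 and Krt14 in each of the 8 arrays, by line and time. Krt5 lies at 8.97 and 9.21 in NBTII-FGFR1 at 48 h and at 11.37 and 10.41 at 24 h, while the 4 NBTII arrays lie at 10.80 to 11.34.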

How the data were processed

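Total RNA of NBTII-FGFR1 and NBTII cells was hybridised to 1-colour Affymetrix rat arrays. Per the submitters' processing notes the authors used RMA (version not stated). Values as deposited are log2 levels, 15923 probe sets in 21 arrays; scanner files were not analysed here. The quantile step of RMA gives all arrays nearly the same distribution, so a change common to all genes would not be seen, and it holds no detection call.

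Groups came from the labels (line and hour). After leaving out 57 control probe sets, limma 3.58.1 (R 4.3.3) fitted 12 group means to the log2 values of all 21 arrays, with lmFit and eBayes (9 residual and 5.68 prior degrees of freedom) and Benjamini-Hochberg adjustment over 15866 probe sets at 0.05. Contrasts were NBTII-FGFR1 48 h minus 24 h, NBTII 48 h minus 24 h and their difference. Errors after ± are standard errors of differences. The number of arrays limits the precision.

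GEO's platform annotation gave 1 symbol to 12783 probe sets, several to 312 and none to 2771. A gene is its probe set of highest mean, and RefSeq matched 12748 by Entrez ID. The 35 gene lists and the members were chosen with earlier results of these data known, so no list count is independent support. The naming rule took the 15 largest changes each way, up to 4 genes a list, 25 genes of the study's subject and the line differences of smallest p. Other genes, such as further list members, are also given in the text outside this rule. The fit was tested on simulated data. Tables and figures used Python 3.11.15, pandas 2.3.3, numpy 2.4.6 and matplotlib 3.10.9.

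Deviations of same-numbered replicates from their group means correlated at -0.0155 in NBTII-FGFR1 and at 0.232 in NBTII. The labels tie the numbers to no shared culture or day, so they were not treated as pairs. Alternatives were a filter on low levels, a replicate block, fewer arrays, another normalization, other eBayes settings, array weights and leaving out each array.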

Additional observations from a re-analysis of the deposited data

Results flagged for a closer look

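A difference between the lines in the step from 24 h to 48 h drew attention to 2 probe sets. Plin2 1382680_at had a step larger by 2.62 in NBTII-FGFR1 than in NBTII (adjusted p = 0.0065, limma), and both 48 h arrays of NBTII-FGFR1 lay above the other 6 arrays. The probe set 1386383_at, which has no symbol, had a step larger by 2.45 (adjusted p = 0.0036), with NBTII at 3.57 to 3.77 in all 4 arrays, under the lower quartile. Groups held 2 arrays, too few to look for single outlying arrays.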

How the results depend on the processing

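The count of probe sets called in NBTII-FGFR1 at 48 h against 24 h was 1518 and stayed within 1.5 times of that with low probe sets left out (1464), a replicate block (1634), only the arrays compared (2216), NBTII-FGFR1 0 h replicate 1 and 2 h replicate 1 left out (1840), quantile normalization repeated (1417) and eBayes with trend and robust settings (1393). It was 2424 with only the 8 arrays of 24 h and 48 h and 2777 with array weights, which gave all 1518 calls and more. Leaving out 1 array gave 356 to 1127. In NBTII, 10 calls became 6 with low probe sets left out, 19 with the replicate block, 77 with only the arrays compared, 194 with the 8 arrays, 35 without those 2 early arrays, 26 with trend and robust settings and 223 with array weights. Leaving out 1 array gave 0 to 16, and limma's unadjusted p was under 0.05 at 931 and 1043 probe sets where no call was made. The difference between the lines gave 2 calls, 0 with low probe sets left out, 0 with only the arrays compared and 0 with the 8 arrays (unadjusted p under 0.05 at 702, 1886 and 1886 probe sets), 7 with quantile normalization repeated and 86 with array weights, and 1 to 8 with 1 array left out. The cause of these differences was not tested; fewer arrays change the estimate of the spread, and leaving out an array leaves 1 in its group, which is assumed to vary like the others. Same-numbered replicates correlated in their deviations at 0.232 in NBTII, where the block moved the calls as given, and at -0.0155 in NBTII-FGFR1; the labels give no pairing. The replicate block gave 3 calls for the difference between the lines. Of 116 named genes that passed, 58 passed under every alternative, 46 lost the call only where an array was left out and 12 also under another setting; none reversed. The 116 are genes named by the rule stated under data processing, and other list members given in the text are not among them. Levels near the lower quartile of an array limit what low genes can show.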

Other observations

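Gene families that were grouped by symbol after values were seen gave a few further patterns, described by counts beside those of all genes (4.67% higher, 6.39% lower). Of 49 genes of hnRNP, SR and snRNP proteins, which bind and splice pre-mRNA, 24 fell (49.0%) and none rose between 24 h and 48 h in NBTII-FGFR1, with a median of -0.47, beside -0.14 in NBTII. Hnrnpa1 read 10.05 and 10.11 at 48 h, against 11.32 and 11.13 at 24 h (-1.15 ± 0.12, adjusted p = 8.2e-05, limma), and the splicing factors Srsf2 and Srsf1 fell by 0.98 and 0.71. Of 19 nucleoporin genes, which build the nuclear pore, 8 fell (42.1%) and none rose, with a median of -0.47 and -0.05 in NBTII, among them Nup93 (-0.75) and Nup107 (-0.60). Cytosolic ribosomal protein genes did not join these: none of 43 passed, and their median was 0.03. Of 34 proteasome genes 3 fell (8.82%) and Psmb9 rose (2.94%).

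Of 16 genes of the vacuolar proton pump, which acidifies lysosomes, 6 rose (37.5%) and none fell, with a median of 0.34 and 0.09 in NBTII. Atp6v0a1 read 7.44 and 6.82 at 48 h, against 5.92 and 5.94 at 24 h (1.20 ± 0.19). Of 11 calpain genes 1 rose (9.09%): Capn8, a calpain of the stomach lining (1.25, adjusted p = 0.031, limma). It read 10.21 and 9.64 at 48 h, against 7.99 and 9.35 at 24 h, while NBTII read 5.77 and 5.52 at 48 h and 6.11 and 6.38 at 24 h. Of 7 caspase genes Casp4 and Casp8 rose (28.6%).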
